A study of Mus musculus with 10 samples.

Results

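The genes described here encode the adaptors and kinases that carry a signal from Toll-like receptors into the cell. They were taken by name from a fixed set of 9 (Myd88, Tirap, Irak4, Irak1, Irak2, Tbk1, Irak3, Tollip and Ticam1), and 8 of these were found among the 545 endogenous genes of the panel. Ticam1, the adaptor TRIF, was not analysed here. The samples were microglia, the resident macrophages of the brain, isolated from the hippocampus of male Balbc mouse pups on a Percoll gradient followed by FACS, and profiled on an nCounter mouse immune panel. This assay counts fluorescent barcodes hybridized to each target, here cDNA made from 2 ng of RNA and amplified by 5 rounds of PCR. All 10 pups were collected at postnatal day 14 and came from different litters. The 5 control pups were numbered 1, 18, 40, 52 and 69. The other 5 pups underwent brief daily separation (BDS), 15 min away from the dam each day, and were numbered 11, 17, 24, 38 and 59. The labels give the schedule as postnatal days 1 to 21, so BDS pups were collected within it. Each pup was read in 1 lane, so the spread between lanes is the spread between pups together with that of the assay.

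Toll-like receptors that meet a microbial product draw adaptor proteins to their inner TIR domain. Tirap sits at the membrane and brings in Myd88, Myd88 gathers the kinases Irak4, Irak1 and Irak2, and these lead to NF-kB and inflammatory cytokine genes. A second route runs through Ticam1 to the kinase Tbk1, which activates Irf3 and interferon genes. Irak3 (IRAK-M) and Tollip restrain the Irak kinases. In microglia the same parts answer microbial products and debris from damaged cells.

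Raw barcode counts were divided by the lane's geometric mean of 6 housekeeping genes (Alas1, Gapdh, Oaz1, Polr1b, Sdha and Tbp) and rescaled to give normalized counts. The lanes differed in depth: endogenous counts ran from 76237 in control 52 to 968930 in BDS 17, and the housekeeping mean varied 11.1-fold over the 10 lanes. The log2 housekeeping mean was higher by 1.23 in BDS lanes, which were thus deeper on average. A gene was tested if its raw count exceeded the lane's background limit, the mean plus 2 SD of 8 negative probes, in at least 4 of the 10 lanes. This kept 283 genes. All 14 microglia marker genes on the panel passed that filter. Together they made up between 44.4% and 52.1% of the endogenous counts of each control lane and between 42.6% and 47.9% in BDS lanes. The shares that follow have the same base. Of 11 T cell markers 0 passed, and Cd3d and Cd3e were never above the limit. Their summed share was 0.0203% to 0.0997% in control lanes and 0.0145% to 0.0249% in BDS lanes. Of 5 B cell markers 2 passed (Cd79b and Blnk), Ms4a1 and Pax5 never exceeded the limit, and the summed share was 0.226% to 0.332% in control and 0.309% to 0.412% in BDS lanes. Of 5 neutrophil markers 1 passed, Csf3r, with a summed share of 0.350% to 0.888% in control and 0.238% to 0.422% in BDS lanes. Of 4 endothelial markers 3 passed, with shares of 0.197% to 0.397% and 0.214% to 0.263%. Of 3 cytotoxic cell markers 2 passed (Klrk1 and Prf1), Gzmb never exceeded the limit, and shares were 0.0122% to 0.0255% and 0.0178% to 0.0272%. The part of these cell types in the results below was not tested.

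The 3 promoters that follow belong to the genes on which the comparison turns, the kinases Tbk1 and Irak4, which had the smallest p-values of the 8, and the adaptor with the opposite sign (Myd88). Each is the 250 bases before the annotated start, on the gene's strand, from RefSeq on GRCm38.p6. Capitals mark matches to 3 motifs searched on both strands: GAAANNGAAA, the core of the interferon-stimulated response element; GGGANNNNCC, a loose form of the kappaB site; and CCGGAAG, an ETS factor core.
Tbk1 (chr10:121586795-121587044, minus strand): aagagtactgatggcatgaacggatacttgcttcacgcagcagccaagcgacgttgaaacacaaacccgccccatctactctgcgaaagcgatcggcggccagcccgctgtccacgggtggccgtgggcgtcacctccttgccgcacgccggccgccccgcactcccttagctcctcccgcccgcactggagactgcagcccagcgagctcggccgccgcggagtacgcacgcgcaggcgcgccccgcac
Irak4 (chr15:94543410-94543659, plus strand): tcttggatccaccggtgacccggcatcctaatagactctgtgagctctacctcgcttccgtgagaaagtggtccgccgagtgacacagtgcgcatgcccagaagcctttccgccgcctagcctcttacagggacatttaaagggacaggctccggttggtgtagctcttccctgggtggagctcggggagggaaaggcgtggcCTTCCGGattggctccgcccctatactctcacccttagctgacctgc
Myd88 (chr9:119340019-119340268, minus strand): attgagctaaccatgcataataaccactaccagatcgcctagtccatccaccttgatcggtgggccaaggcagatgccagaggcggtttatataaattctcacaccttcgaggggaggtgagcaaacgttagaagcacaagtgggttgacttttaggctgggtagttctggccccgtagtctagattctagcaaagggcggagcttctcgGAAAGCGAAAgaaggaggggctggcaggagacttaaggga

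The Myd88 promoter held 1 match to GAAANNGAAA, written GAAAGCGAAA, whose first base lay 40 bases before the start. A match to this motif was present in 2.98% of 32851 upstream windows of the same length. The Irak4 promoter held CCGGAAG on the opposite strand (CTTCCGG), starting 47 bases before the start, and Tollip, Ticam1 and 1 of the Tirap windows held the same motif, which 6.91% of all windows did. GGGANNNNCC was found before Irak1 and in 1 of the Irak3 windows, and in 17.6% of all windows. Matches to the 3 motifs did not overlap one another in these windows. Tbk1 held none of the 3, and was rich in G and C at 68.4% against a median of 52.4% over all windows. This was not particular to Tbk1, as 1 of the Tirap windows was also at 68.4%. The 12 windows of the 9 genes ran from 47.6% to 68.4%. These are letter matches and were not linked to binding.

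The comparison asked whether this signalling relay differed between microglia of BDS and control pups. Irak3 exceeded the background limit used here in BDS lanes alone and is left out of the counts and medians that follow. Of the other 7 genes, 6 had a higher fitted level in BDS lanes and 1, Myd88, a lower one. Over the 283 tested genes 55.8% were higher. Tollip, counted among the 6, lay near 0 (log2 fold change 0.01 ± 0.19, SE). At an unadjusted p under 0.05 in edgeR's quasi-likelihood test, Tbk1, Irak4 and Irak1 were higher and none was lower. That is 3 of 7 higher and 0 of 7 lower, where 19.4% of the 283 tested genes were higher and 8.83% lower at this bound. The kinases Tbk1, Irak4, Irak1 and Irak2 and the adaptor Tirap lay above the control mean in 5 of 5 BDS lanes, as did 25.8% of all tested genes. The median log2 fold change of the 7 was 0.47, against 0.09 over all tested genes. Each lane holds RNA pooled from many cells, so fewer cells carrying a transcript and less of it per cell cannot be told apart. After adjustment over the 283 genes none of the 8 passed 0.05, and 0 genes of the panel did (0.00%). Unadjusted, 80 genes (28.3%) had a p under 0.05. At the adjusted bound DESeq2, run with the same factors, called 25 genes (8.83%), Tbk1 among them, and limma called 0.

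**Figure D1:**
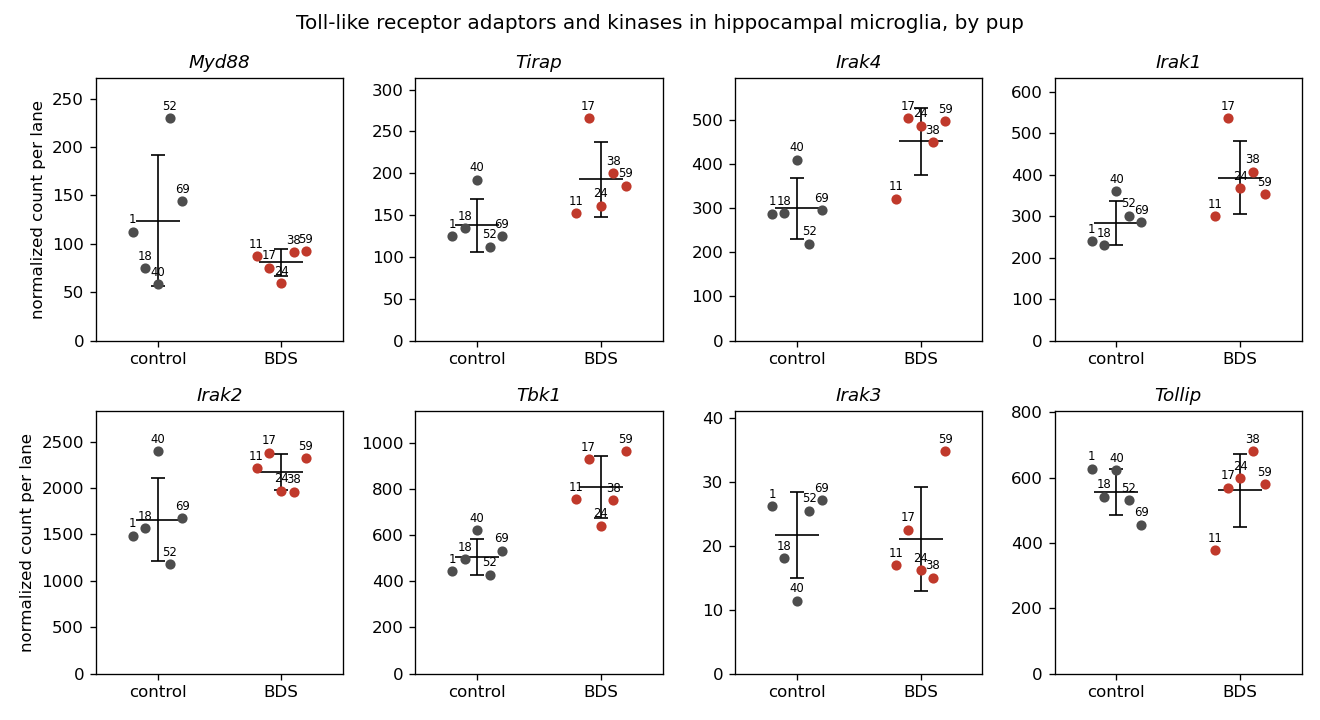
Normalized counts of the 8 genes in each pup (points, numbered by pup; control grey, BDS red), with the group mean and SD (n = 5) as bar and whiskers; each panel has its own vertical axis starting at 0. For Tbk1 the lowest BDS lane (641) stands above the highest control lane (621), while for Myd88 control 52 (229) stands above every other lane.

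Tbk1, the kinase at which the Ticam1 route reaches Irf3, was the 1 gene of the 8 whose groups did not overlap. Control lanes 1, 18, 40, 52 and 69 stood at 443, 494, 621, 428 and 532 normalized counts. BDS lanes 11, 17, 24, 38 and 59 stood at 755, 928, 641, 750 and 962. Every BDS lane was above every control lane, a pattern shown by 3.53% of tested genes in this direction, and the nearest lanes were control 40 and BDS 24. The means were 504 ± 77.5 (SD, n = 5) in control and 807 ± 134 (SD, n = 5) in BDS lanes. The log2 fold change was 0.68 ± 0.19 (SE; edgeR adjusted p = 0.0642), the 10th smallest p of the panel. Over 30 other settings the direction held in all and the unadjusted p stayed under 0.05 in all, while the adjusted p ran from 0.0114 with DESeq2 to 0.369 with lane depth as a covariate, and passed 0.05 in 5. With groups that do not overlap, leaving out pups under the same scaling could not turn the direction. Raw counts of lanes of like depth can be set side by side. Control 1 and BDS 11, whose housekeeping means were 461 and 477 raw counts, held 355 and 624 raw Tbk1 counts. Control 40, at a housekeeping mean of 1060, held 1143, and BDS 38, at 1113, held 1449. BDS 24, at a mean of 997, held 1108, near control 40. Without control 40, the deepest control lane, the adjusted p was 0.0254 for Tbk1. With that lane left out, the edgeR adjusted p was also 0.0308 for Irak4 and 0.0425 for Irak2, and 48 genes of the panel passed.

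Irak4, the first kinase to join Myd88 and the one that phosphorylates the others, stood at 287, 288, 410, 219 and 296 normalized counts in control lanes 1, 18, 40, 52 and 69. The values of BDS lanes 11, 17, 24, 38 and 59 were 322, 504, 487, 450 and 498. The groups overlapped through control 40, which lay above BDS 11, and the other 4 BDS lanes lay above every control lane. The means were 300.3 ± 69.0 (SD, n = 5) and 452 ± 75.8 (SD, n = 5), with a log2 difference of 0.58 ± 0.20 (SE; edgeR adjusted p = 0.126). The lowest lane of each group in Irak4 was the shallowest of that group, control 52 and BDS 11. Fitted together with lane depth, its log2 fold change was 0.30 ± 0.20 (SE). The unadjusted p of Irak4 stayed under 0.05 in 27 of 30 other settings, the exceptions being the fit with lane depth and those without the shallowest lanes.

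Irak1, the kinase that passes the signal on to Traf6, stood at 240, 230, 359, 301 and 285 normalized counts in control lanes 1, 18, 40, 52 and 69 and at 300.0, 535, 367, 407 and 353 in BDS lanes 11, 17, 24, 38 and 59. BDS 17 was the highest lane and 3 of 5 BDS lanes lay above every control lane. Its log2 fold change was 0.47 ± 0.21 (SE; edgeR adjusted p = 0.156), and it was 0.34 without BDS 17. Its unadjusted p stayed under 0.05 in 16 of 30 other settings. It did not without control 1, 18 or 69 or BDS 17 or 38, each left out singly, nor without the shallowest lanes, with TMM or median-of-ratios scaling, without Oaz1 or Sdha, after background subtraction, on the authors' scores or with lane depth as a covariate. Irak2, a related kinase that sustains the signal, spread from 1178 to 2396 normalized counts over the control pups, with a median of 1570, and from 1963 to 2381 in BDS lanes, with a median of 2212. Control 40 was the highest of all lanes for Irak2 and the other 4 control lanes lay below every BDS lane. The log2 fold change was 0.38 ± 0.19 (SE; edgeR adjusted p = 0.199), and 0.55 without control 40. The Irak2 values varied less among BDS pups (8.98% of the mean) than among control pups (27.1%), a difference that was not tested.

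Tirap, the adaptor that brings Myd88 to the membrane, stood at 125, 134, 192, 112 and 125 normalized counts in control lanes 1, 18, 40, 52 and 69 and at 152, 266, 161, 200 and 185 in BDS lanes 11, 17, 24, 38 and 59. Only control 40 reached into the BDS range. The log2 fold change was 0.47 ± 0.23 (SE; edgeR adjusted p = 0.182), 0.32 without BDS 17 and 0.19 with lane depth as a covariate. In control 52 the raw Tirap count of 22 lay below that lane's limit of 24.4, so its value there is at background by this limit. The authors' deposited table has Tirap above background in 100% of samples.

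Myd88, the adaptor shared by most Toll-like receptors and the interleukin-1 receptor, was the only one of the 8 with a lower fitted level in BDS lanes. It stood at 112, 74.7, 58.2, 229 and 144 normalized counts in control lanes 1, 18, 40, 52 and 69 and at 87.1, 75.4, 59.0, 91.2 and 92.2 in BDS lanes 11, 17, 24, 38 and 59. The 3 shallowest control lanes (1, 52 and 69) lay above every BDS lane, and the deepest, control 40, lay below every BDS lane. The fitted value, -0.54 ± 0.33 on the log2 scale (SE), did not pass the test (edgeR adjusted p = 0.278). It was -0.23 without control 52 and -0.0014 without control 52 and 69, and with lane depth as a covariate it was 0.22 ± 0.26, on the other side of 0. Scaling to the positive controls alone put it at 1.10, a scaling that put 281 of the 283 genes higher in BDS.

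Raw counts show how differently Myd88 followed depth. Its raw count ran from 45 in control 52 to 176 in BDS 38, a 3.91-fold range, and 19 of the 283 tested genes had a range that narrow or narrower, Myd88 included. Raw counts of Tbk1 spanned 24.0-fold, of Irak4 25.5-fold, of Tirap 26.3-fold, of Irak2 22.4-fold, of Irak1 19.7-fold and of Tollip 12.6-fold, where the median tested gene spanned 14.8-fold. The Myd88 count in control 52 was above that lane's background limit of 24.4, as it was in all 10 lanes. What sets the flatter course of Myd88 was not tested.

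**Figure D2:**
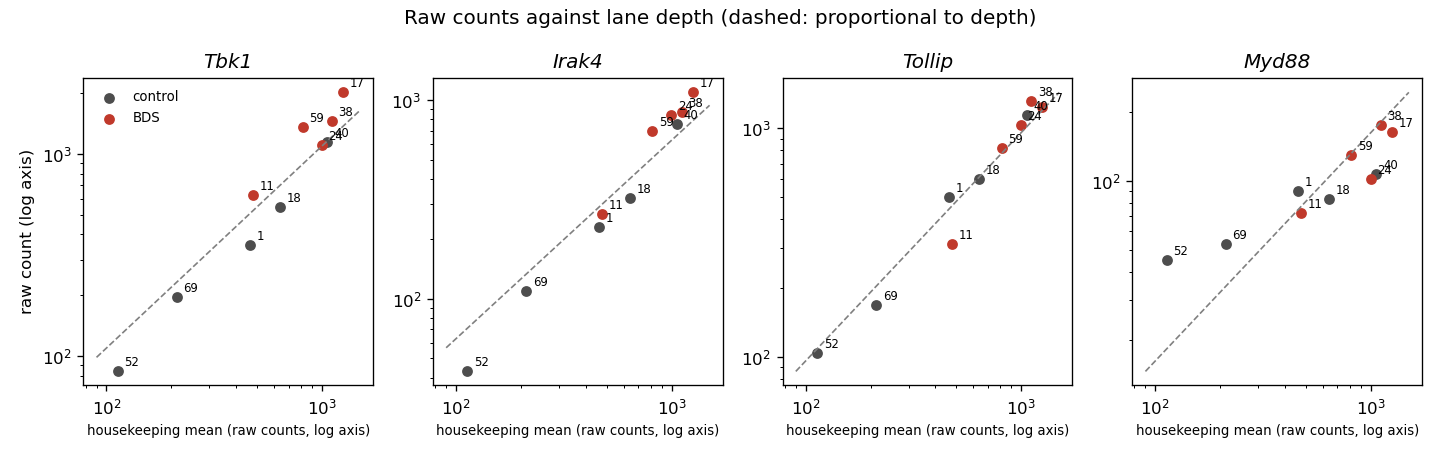
Raw counts of Tbk1, Irak4, Tollip and Myd88 (vertical log axes) against the lane's housekeeping mean (horizontal log axes), 1 point per pup, control grey and BDS red; the dashed line is proportional to depth. Myd88 in control 52 (45 counts) and control 69 (53 counts) lies above its line, while Irak4 in control 52 (43 counts) lies below its own.

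A ratio of 2 genes within a lane needs no scaling between lanes, but it can still move with lane depth. Irak4 counts divided by Myd88 counts gave ratios of 2.56, 3.86, 7.06, 0.956 and 2.06 in control lanes 1, 18, 40, 52 and 69. The same ratio was 3.69, 6.68, 8.25, 4.93 and 5.40 in BDS lanes 11, 17, 24, 38 and 59. The groups overlapped through control 18 and control 40. This pair of genes was chosen with earlier results of these data known, so its p-values describe the lanes and are no independent test. The mean log2 ratio was 1.42 ± 1.07 (SD, n = 5) in control and 2.48 ± 0.44 (SD, n = 5) in BDS lanes, a difference of 1.06 (exact two-sided permutation p = 0.0794). Without control 52, the lowest lane, that difference was 0.69 (exact two-sided permutation p = 0.143), and without control 40, the highest control lane, it was 1.41 (exact two-sided permutation p = 0.0159). With any 1 of the other 8 pups left out, the exact permutation p lay between 0.0714 and 0.159. The ratio was lowest in the shallowest lane, control 52, and rose with depth over the control lanes, in the order 52, 69, 1, 18 and 40. BDS lanes were deeper on average, so the group difference in this ratio is not free of depth. At like depth the order varied. BDS 11 lay above control 1 (housekeeping means 477 and 461), while BDS 38 lay below control 40 (1113 and 1060). The part of depth in the difference was not tested.

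The fitted differences of both restraining genes lay near 0 with the 6 housekeeping genes. Tollip, which binds Irak1 and holds it inactive, stood at 627, 542, 624, 530 and 456 normalized counts in control lanes 1, 18, 40, 52 and 69 and at 377, 569, 598, 681 and 581 in BDS lanes 11, 17, 24, 38 and 59. The lowest and the highest of all lanes, BDS 11 and BDS 38, were both BDS lanes, and the groups overlapped. The log2 fold change was 0.01 ± 0.19 (SE; edgeR adjusted p = 0.982), and its sign turned in 15 of 30 other settings. Set against Tollip in the same lane, Tbk1 counts were 0.707, 0.912, 0.997, 0.808 and 1.17 times as many in control lanes 1, 18, 40, 52 and 69. In BDS lanes 11, 17, 24, 38 and 59 they were 2.00, 1.63, 1.07, 1.10 and 1.66 times as many. Only control 69 reached into the BDS range. The Irak4 to Tollip ratio ran from 0.413 to 0.658 in control lanes and from 0.661 to 0.885 in BDS lanes, where control 40 and BDS 38 all but met. Both ratios were picked after their values were seen and are given without a test, and BDS 11, the highest lane for the Tbk1 ratio, was the lowest for Tollip.

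Irak3, the inactive kinase that blocks release of Irak1 from the receptor complex, lay close to background. It exceeded the limit used here in 4 lanes, all of them BDS lanes, and in no control lane, so it passed the filter through 1 group. The authors' deposited table has Irak3 above background in 70% of samples, so the lanes counted depend on the limit. Its raw counts were 21, 20, 21, 5 and 10 in control lanes 1, 18, 40, 52 and 69 and 14, 49, 28, 29 and 49 in BDS lanes 11, 17, 24, 38 and 59. The background limits of all 10 lanes lay between 13.9 and 26.3 raw counts. After scaling, Irak3 was at 11.4 to 27.2 normalized counts in control and 15.0 to 34.8 in BDS lanes, and the log2 fold change was 0.05 ± 0.35 (SE; edgeR adjusted p = 0.943). Its value depended on how background and scale were treated, at 1.05 after subtraction of the negative probes and 1.45 when lanes were scaled to positive controls alone, where Tollip was at 1.21. No change in Irak3 could be read from counts this close to background.

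**Figure D3:**
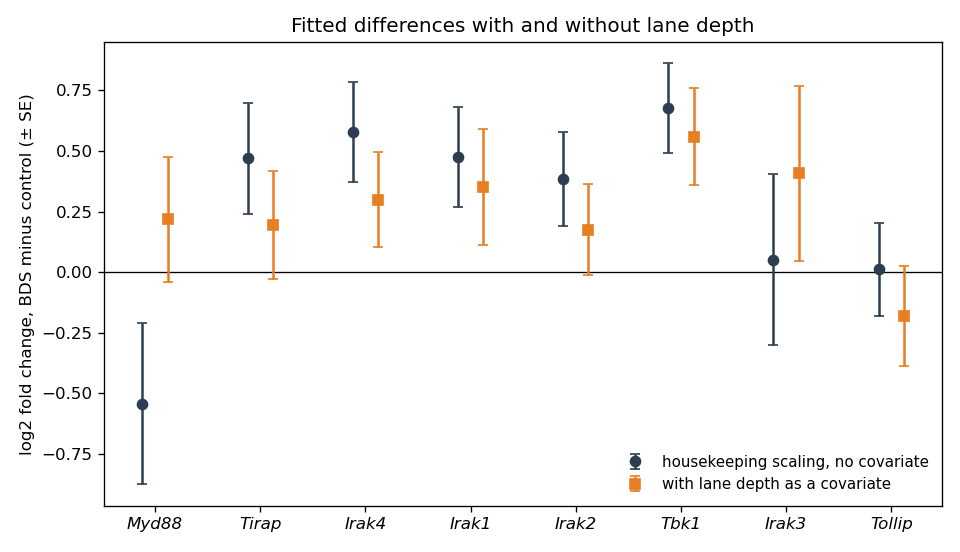
Fitted log2 fold changes (BDS minus control; whiskers are 1 SE) of the 8 genes without a covariate (dark circles) and with lane depth as a covariate (orange squares). Tbk1 stays near its value (0.68 and 0.56), Irak4 is at 0.58 and 0.30, and Myd88 at -0.54 and 0.22.

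Lane depth moved with the groups, so each gene was also fitted beside it. With the log2 housekeeping mean as a covariate, Tbk1 was at 0.56 ± 0.20 (SE; edgeR adjusted p = 0.369) and was the 1 of 8 genes with an unadjusted p under 0.05, where 9.19% of tested genes were higher at that bound. Irak1 was at 0.35 ± 0.24, Irak2 at 0.18 ± 0.19, Tollip at -0.18 ± 0.20 and Irak3 at 0.41 ± 0.36. The median of the 7 genes without Irak3 was 0.22 in that fit, against 0.15 over all tested genes. Without control 52 and 69, the shallowest lanes, Tbk1 was at 0.63, Irak4 at 0.46, Irak1 at 0.50, Tirap at 0.35 and Irak2 at 0.25.

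**Figure D4:**
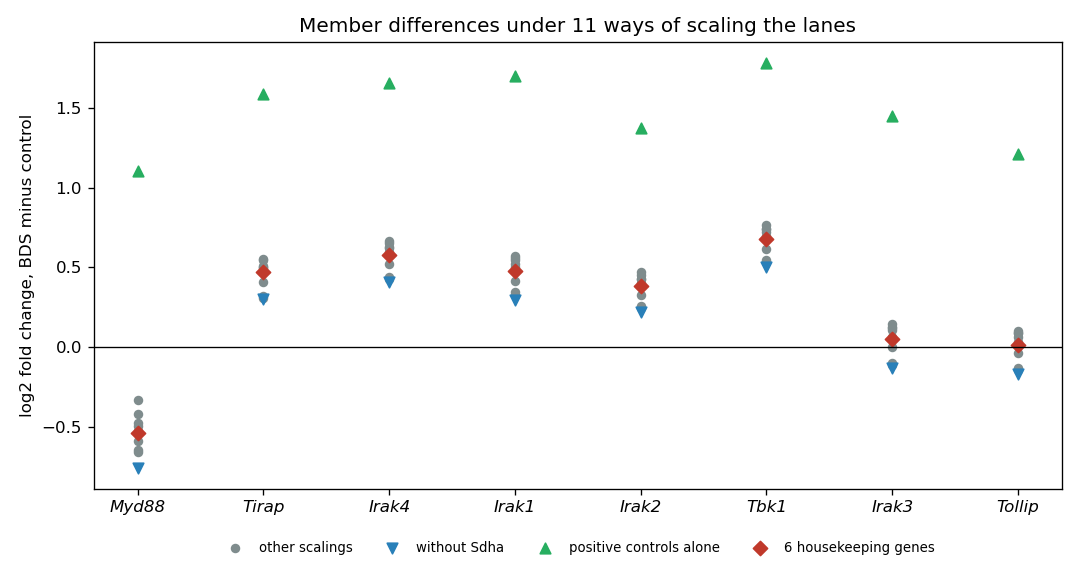
Log2 fold changes (BDS minus control) of the 8 genes under 11 scalings: the 6 housekeeping genes (red diamonds), the same without Sdha (blue), positive controls alone (green) and 8 others (grey). Tbk1, Irak4, Irak1, Irak2 and Tirap lie above 0 under each, while Irak3 and Tollip straddle 0 and Myd88 is above 0 with positive controls alone.

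The choice of housekeeping genes moved all values together. Sdha was lower in BDS lanes than the other 5, by 0.93 on the log2 scale relative to the 6-gene mean, and leaving it out put the median of all tested genes at -0.09. In that scaling Tbk1 was at 0.50, Irak4 at 0.41, Tirap at 0.30, Irak1 at 0.29, Irak2 at 0.22, Tollip at -0.17 and Myd88 at -0.76. TMM gave a panel median of -0.04 and positive controls alone one of 1.35. In the authors' deposited table, which is scaled to housekeeping genes in its own way, the BDS to control ratio was 1.42 for Tbk1 (unadjusted p = 0.0066) and 1.34 for Irak4 (unadjusted p = 0.0212). The authors' deposited table gave ratios of 1.24 for Tirap, 1.22 for Irak1 and 1.16 for Irak2, with unadjusted p-values of 0.1170, 0.1438 and 0.1485. It gave 0.89 for Tollip, 0.84 for Irak3 and 0.56 for Myd88 in the authors' deposited table, with unadjusted p-values of 0.2161, 0.4915 and 0.1515.

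Other genes of the pathway, from receptors to targets, were taken from a list of 48, of which 36 were on the panel and 28 were tested. At an unadjusted edgeR p under 0.05, 6 of the 28 were higher and 1 was lower in BDS lanes, beside 19.4% higher and 8.83% lower over the panel, so the share on the higher side was near that of all genes. None (0) passed the adjusted threshold over all genes. The list median was 0.27 against 0.09 over all tested genes, and 20 of 28 lay above 0, where 55.8% of all tested genes did. With lane depth as a covariate the list median was 0.33, against 0.15 over all tested genes. The smallest p on the higher side belonged to Casp8, a protease that also joins Ticam1 complexes. It stood at 1477 ± 387 normalized counts in BDS and 834 ± 192 in control lanes (SD, n = 5 each). As a log2 fold change this was 0.83 ± 0.23 (SE), or 0.76 with lane depth as a covariate. Chuk, the kinase subunit IKK alpha, was at 0.68 ± 0.21 (SE), or 0.53 with lane depth as a covariate. It had 458 to 627 normalized counts in BDS lanes and 204 to 415 in control lanes. Its groups did not overlap, as was the case for 3.53% of all tested genes in this direction. Tlr1, which pairs with Tlr2 to sense lipoproteins, was at 0.49 ± 0.20 (SE), or 0.33 with lane depth as a covariate. On the lower side Tlr9, the endosomal sensor of unmethylated DNA, was at -0.41 ± 0.17 (SE), and at -0.58 with lane depth as a covariate. The other genes with the smallest p below 0 were the NF-kB subunit Relb at -0.98 ± 0.53 and the adaptor Traf3 at -0.37 ± 0.22 (SE). Relb turned to 0.51 with lane depth as a covariate, the same turn that Myd88 showed, while Traf3 was at -0.28 in that fit.

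Genes were also ranked by how closely their lane profile matched that of Tbk1, Irak4 or Myd88, as the root mean square difference of log2 normalized counts over the 10 lanes after each gene was centred on its own mean. Nearest to Tbk1 were the autophagy gene Atg16l1 (0.173), the activation marker Cd83 (0.182) and the transcription factor Ikzf1 (0.187), where the median of 275 other tested genes was 0.511. Nearest to Irak4 were the integrin chain Itgb1 (0.109), Abcf1 (0.122) and the sialomucin Cd164 (0.151), against a median of 0.524. Nearest to Myd88 were the cytokine subunit Ebi3 (0.0739), Ly86 (0.226), the partner of the receptor-like protein Cd180, and the TNF family receptor Ltbr (0.265), against 0.717. Among the 8 genes themselves, Tirap and Irak1 were nearest to each other (0.174), as were Tbk1 and Irak2 (0.192), and Myd88 stood farthest from the rest, its nearest being Irak3 at 0.459. All profiles share the same lanes, depths and scaling factors, so these distances describe the lanes and carry no test.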

How the data were processed

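Barcode counts of microglia from 10 pups (5 control, 5 BDS) were read from the authors' deposited raw table; these counts are not normalized, and the counting software is not given in the sources used here. A further table deposited by the authors holds scaled values rounded to whole numbers (treated as a score), a fold ratio of group means, an unadjusted p-value and the percent of samples above background. The design text has the authors normalizing to positive controls and to 5 housekeeping genes, although it names 6.

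Lanes were scaled here to the 6 named genes. Genes whose count passed the negative-probe limit (mean plus 2 SD) in 40% of lanes or more entered a two-sided quasi-likelihood test in edgeR 4.0.16 (R 4.3.3), with Benjamini-Hochberg adjustment over 283 genes. The SE was obtained by dividing the log2 fold change by the root of F. The fit was first tested on simulated data. Ratios used exact permutation over 252 assignments. The 3 planned ratios were chosen with earlier results of these data known, and those with Ticam1 and Irak3 were not computed. DESeq2 1.42.0 and limma 3.58.1 (on log2 normalized counts with a pseudocount of 1, or 10) were alternatives, besides other scalings, filters and pups left out. The fits without the shallowest lanes were added after seeing the data.

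Members and lists were chosen with earlier results of these data known. Named were the members, the 6 housekeeping genes, the 3 pathway genes with the smallest p in each direction and the 3 genes nearest to Tbk1, Irak4 and Myd88 in profile. The 8 probe accessions matched RefSeq symbols. A marker listed at the design stage is not reported here, and Cd3eap, which encodes an RNA polymerase I subunit, was taken out of the T cell markers after the data were seen. Counts follow amplification without molecular identifiers. Levels are not compared between genes, because each probe binds and amplifies with its own efficiency.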

Additional observations from a re-analysis of the deposited data

Results flagged for a closer look

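Tirap in control 40 stood at 192 normalized counts, apart from the other control lanes, which lay between 112 and 134. The gap to the nearest lane took 0.726 of the group's range, above Dixon's critical value of 0.710 for 5 samples. It was the 1 such value among 16 groups of 5 lanes examined, and chance gives about 1 in 20 groups. Control 40 was the deepest control lane.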

How the results depend on the processing

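Tbk1, Irak4, Irak1, Irak2 and Tirap were higher in BDS lanes under every alternative run (30 each, 29 for Tirap, which the filter on all 10 lanes drops along with Irak3). These runs share pups, and positive controls alone put 281 of the 283 tested genes higher. The share of all tested genes that kept their direction in every run was not computed, so this is not read as particular to the 5. The count of genes passing an adjusted p of 0.05, 0 in the reported fit, was 14 with positive controls alone, 12 without Gapdh, 15 without Polr1b, 10 with genes above the limit in all 10 lanes and 25 with DESeq2. It ran from 0 to 48 with 1 pup left out (48 without control 40, 19 without BDS 11). Of the 8 genes, Irak3 included, 3 had an unadjusted p under 0.05 as reported, as did 28.3% of the 283 tested genes. The number among the 8 was 5 with positive controls alone (Irak3 among them), without Gapdh and without Polr1b. It was 1 with lane depth as a covariate, where 9.19% of tested genes were higher at that bound. It was 1 without the shallowest lanes (control 52 and 69) and 1 also without BDS 17. With 1 pup left out it ran from 2 to 6, the 6 without control 40. Shares over all tested genes were not computed for these other settings, so their counts have no background beside them. The adjusted p of Tbk1 passed 0.05 without Gapdh (0.0485), without Polr1b (0.0407), with genes above the limit in all 10 lanes (0.0490), with DESeq2 (0.0114) and without control 40 (0.0254). The difference in log2 Irak4 to Myd88 ratio ran from 0.69 (without control 52) to 1.41 (without control 40) with 1 pup left out.

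Myd88 turned to 1.10 with positive controls alone, to 0.22 with lane depth as a covariate and to 0.026 without control 52, control 69 and BDS 17. Irak3, near background, turned to -0.10 with TMM, -0.11 with median-of-ratios, -0.0020 without Oaz1, -0.13 without Sdha, -0.042 with limma, -0.032 with its larger pseudocount and -0.21 on the authors' scores, and lay between -0.20 and 0.18 with 1 pup left out, being -0.16 without control 40 and -0.0063 without control 18. Tollip turned to -0.13 with TMM, -0.14 with median-of-ratios, -0.040 without Oaz1, -0.17 without Sdha, -0.10 after background subtraction, -0.0026 and -0.0023 with limma at the smaller and larger pseudocount, -0.19 on the authors' scores, -0.18 with lane depth, -0.088 without the shallowest lanes and -0.093 also without BDS 17; with 1 pup left out it lay between -0.066 (without BDS 38) and 0.12, with -0.0041 without control 52, -0.05 without control 69 and -0.01 without BDS 24. Apart from leaving out pups or genes, the cause was not tested. No paired analysis was possible because control and BDS pups share no numbers. Irak3 was below the background limit used here in every control lane, as was Tirap in control 52. The part of depth in this was not tested.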
